A study of Mus musculus with 24 samples.

Results

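The extensor digitorum longus (EDL), a predominantly fast-twitch muscle of the lower leg, was compared between mice with and without the reprogramming factors Oct4, Sox2, Klf4 and c-Myc (OSKM) in their myofibers after 8.5 days of doxycycline (Dox). The comparison held 4 of the 24 RNA-seq libraries of the series, chosen by muscle, day and genotype alone: 2 libraries from Acta1-Cre+/4Fhet mice (Cre+) and 2 from Acta1-Cre-/4Fhet mice (Cre-). All mice were 2 months old, carried 1 copy of the Dox-inducible OSKM cassette (4F) and drank water with 1 mg/ml Dox, the Cre- controls included, so by the labels the groups differed in the Cre transgene. The Acta1 promoter directs Cre to skeletal myofibers, where Cre removes a stop cassette in front of the rtTA activator and a GFP transgene, and Dox then switches the factors on. RNA came from whole muscle, which also holds endothelial cells, fibroblasts, satellite cells, nerve and tendon. In bulk RNA, fewer cells of a type and less RNA per cell cannot be told apart. The series also sampled the slow-twitch soleus (SOL) of the same mice and other days of Dox, and the 2.5-day EDL libraries and the 8.5-day SOL libraries served here for comparison.

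OSKM together can return a differentiated cell to pluripotency. Oct4 and Sox2 bind DNA as partners, Klf4 is a zinc-finger protein that binds CACC-type sequences and is also known from epithelial barrier tissue, and c-Myc drives growth, ribosome production and metabolism. A fast myofiber is a multinucleated, postmitotic cell filled with sarcomeres, fed by glycogen breakdown, glycolysis and, to a varying degree, mitochondrial respiration. It also forms part of the niche of satellite cells, the muscle stem cells that lie between the fiber membrane and the laminin-rich basal lamina and respond to ligands and adhesion proteins of the fiber.

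Total counts ranged from 36088781 to 53041969 over the 4 libraries, and levels are given as FPKM, the count scaled to the exon length in kilobases and to the total count of the library. The fast-fibre list made up 16.4% to 20.0% of all counts in each library, with Myh4, the fast 2B myosin, at 3804 and 7905 FPKM in Cre- muscles and 6167 and 5123 FPKM in Cre+ muscles. The Cre- libraries stood further apart from each other than the Cre+ libraries did. Their Euclidean distance over the genes tested, on log2(FPKM + 5), was 27.1 against 19.2 for the Cre+ pair, while Cre+ and Cre- libraries lay 38.9 to 50.3 apart. Slow-fibre genes carried part of that split. Their summed level was 2000 FPKM in Cre- replicate 1 and 510 FPKM in Cre- replicate 2, with the Cre+ libraries between them at 1085 and 1128 FPKM, and the slow myosin Myh7 was at 88.6 and 18.2 FPKM in Cre- and 38.5 and 37.4 FPKM in Cre+ muscles. Liver-type transcripts were set aside. Alb stood at 2.44 and 3.68 FPKM in Cre- and 0.378 and 0.320 FPKM in Cre+ muscles, and 15 of 77 tested genes of a liver list were lower and 0 higher (1 lower without Cre+ replicate 1). They are counted apart below and play no part in the gene groups.

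All 4 factors were higher in Cre+ muscles, which checks the genotype labels (adjusted p values here and below come from edgeR over all genes). Pou5f1, the gene of Oct4, lay at 0.0618 and 0.0896 FPKM in Cre- and 76.2 and 57.7 FPKM in Cre+ muscles, a log2 fold change of 9.55 ± 0.82 (SE, n = 2 per group, adjusted p = 1.86e-05). Sox2 was at 0.0563 and 0.0490 FPKM in Cre- and 29.3 and 21.7 FPKM in Cre+ muscles (8.71 ± 0.86, adjusted p = 4.44e-05). Both genes were near 0 in each Cre- library, with 3 to 5 counts. Myc was at 2.40 and 3.34 FPKM in Cre- and 87.1 and 77.2 FPKM in Cre+ muscles (4.65 ± 0.53, adjusted p = 0.000142). Klf4 was the factor with an appreciable level without Cre, at 9.25 and 17.0 FPKM against 61.9 and 48.1 FPKM in Cre+ muscles (1.87 ± 0.41, adjusted p = 0.0088). Without Cre- replicate 1 or Cre+ replicate 1 its change was 1.49 or 1.74 and missed the threshold. The groups did not overlap for any factor, and Cre+ replicate 1 was the higher Cre+ library for each. Exon counts do not separate cassette transcripts from endogenous ones, and Sox2 overlaps the non-coding Sox2ot.

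Across the transcriptome, 15372 genes were tested and 2172 (14.1%) passed an adjusted p under 0.05 with an absolute log2 fold change over 0.5, the threshold used throughout. Of these, 1173 (7.63%) were higher and 999 (6.50%) lower in Cre+ muscles, 984 of the latter outside the liver list. Groups did not overlap in FPKM for 2145 of the called genes (14.0% of those tested), against 8583 (55.8%) of all genes tested, and 4588 (29.8%) had an unadjusted p under 0.05. The rises were larger than the falls: the median log2 fold change was 0.99 among genes called higher and -0.83 among genes called lower, 580 against 318 genes passed 1 on the log2 scale, and 102 against 24 passed 3. The abundance of the genes differed with the direction. Among 604 genes with a mean of at least 100 FPKM, 158 (26.2%) were lower and 44 (7.28%) higher, whereas among 6383 genes between 1 and 10 FPKM 340 (5.33%) were lower and 504 (7.90%) higher.

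The split between directions depended on the scaling between libraries. With TMM the median change over everything tested was -0.02 on the log2 scale, and scaling by library size alone placed it at 0.16, with 1956 genes higher and 542 lower. It also depended on single libraries: without Cre+ replicate 1 there were 543 higher and 195 lower, without Cre- replicate 1 there were 742 and 509, and without Cre- replicate 2 the split turned, with 1235 higher and 1435 lower. With the 5.5-day libraries in the fit, 24 in all, there were 1210 higher and 1275 lower.

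**Figure D1:**
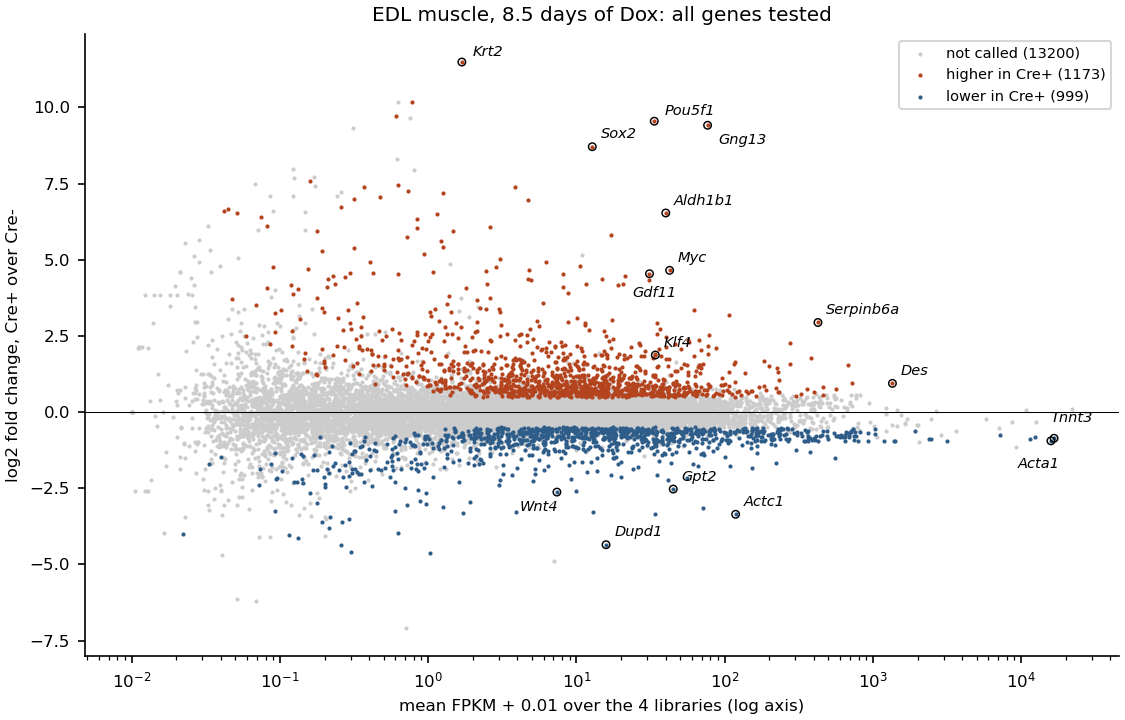
Each point is 1 of the genes tested, with the mean FPKM of the 4 EDL libraries of 8.5 days plus 0.01 on the x axis (log scale) and the log2 fold change of Cre+ over Cre- on the y axis. Red marks the 1173 genes higher and blue the 999 genes lower in Cre+ muscles, grey the genes not called; the largest rises lie at low and middle levels and the most abundant called genes, such as Acta1 and Tnnt3, lie below 0.

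The largest rises outside the cassette were of genes nearly silent in Cre- muscles, several of them known from epithelia. Genes named for the largest rises and falls were chosen among those whose groups did not overlap. Krt2, a keratin of the epidermis, had no count in either Cre- library and 6.22 and 0.486 FPKM in Cre+ muscles, at least 112-fold higher by the mean of the Cre+ libraries, and at least 16.3-fold by the lower of them, against a floor of 3 counts per Cre- library (adjusted p = 0.0109). Its Cre+ libraries differed widely, the fitted change was 11.49 with all libraries and 8.77 without Cre+ replicate 1, and the call was lost without Cre- replicate 1 (11.52). Grhl3, a transcription factor of the epidermal barrier, had 3 counts over both Cre- libraries and 695 over both Cre+ libraries, a ratio of 179 with a 95% Clopper-Pearson interval of 60.9 to 869 that covers counting error only. Its levels were 0.010 and 0.0175 FPKM in Cre- and 3.04 and 1.91 FPKM in Cre+ muscles (adjusted p = 4.24e-05). Mt4, a metallothionein of stratified epithelia, had 1 count in Cre- and 296 in Cre+ muscles, a ratio of 228 (interval 40.7 to 9050), with 7.23 and 8.08 FPKM in the Cre+ libraries. Pkp1, a desmosome plaque protein, had 2 against 587 counts, a ratio of 226 (interval 62.4 to 1874), and 1.75 and 0.706 FPKM in the Cre+ libraries. The Cre- and Cre+ libraries did not overlap for any of these genes.

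Other epithelial genes followed. Krt7, a keratin of simple epithelia, was at 0.0528 and 0.0766 FPKM in Cre- and 6.20 and 4.07 FPKM in Cre+ muscles (6.07 ± 1.10, adjusted p = 0.00309). Evpl, the envoplakin of the cornified envelope, was at 0.0261 and 0.0568 FPKM in Cre- and 3.08 and 1.66 FPKM in Cre+ muscles (5.60 ± 0.62, adjusted p = 0.000105). Elf3, an epithelial ETS factor, was at 0.237 and 0.400 FPKM in Cre- and 4.92 and 4.84 FPKM in Cre+ muscles (3.74 ± 0.67, adjusted p = 0.00299). For all 3 genes the Cre+ libraries lay far above the Cre- libraries. Other keratins were not called. Krt18 was at 0.159 and 0.139 FPKM in Cre- and 0.190 and 0.167 FPKM in Cre+ muscles (0.08, adjusted p = 0.939). Krt8 was at 0.139 and 0.0538 FPKM in Cre- and 1.09 and 0.211 FPKM in Cre+ muscles (2.57, adjusted p = 0.0582). The change of Krt8 was 1.03 without Cre+ replicate 1, 3.28 without Cre+ replicate 2, and 9.19 at 2.5 days. Of 41 genes of an epithelial list, 29 passed the filter on low counts, 6 rose, among them Pkp1, Grhl3, Krt7, Evpl and Elf3, and 0 fell, with a median of 0.29, where 7.63% of all genes were called higher and 6.50% lower. Of the 29 genes 9 had a negative change, down to -1.08, and the median of the list at 2.5 days was -0.16. Without Cre- replicate 1 a gene of the list was lower. A gene of this list that is silent in Cre- muscles passed the filter only where it was expressed in some group, so the count is a description. Markers of keratinocytes were mostly absent: of 7, only 2 were tested, Krt5 had no count in any library, Krt14 had at most 2 counts, and Trp63 rose from 1.82 and 2.05 to 7.70 and 6.17 FPKM (1.66 ± 0.27, adjusted p = 0.00187).

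Genes outside the epithelial list rose as far. Gng13, a G protein gamma subunit known from taste and olfactory cells, was at 0.0677 and 0.295 FPKM in Cre- and 219 and 87.0 FPKM in Cre+ muscles (9.41 ± 1.11, adjusted p = 0.000183). It overlaps Chtf18, and the strand used in counting is not given in the sources used here. Aldh1b1, a mitochondrial aldehyde dehydrogenase at chr4:45799022-45804608, was at 0.760 and 0.745 FPKM in Cre- and 84.9 and 73.8 FPKM in Cre+ muscles (6.54 ± 0.52, adjusted p = 1.34e-05). Cfap52, a protein of motile cilia, was at 0.723 and 0.342 FPKM in Cre- and 40.6 and 26.9 FPKM in Cre+ muscles (5.81 ± 0.39, adjusted p = 7.02e-06). Each of these had replicates within a few-fold of each other and groups far apart. Arhgap36 was at 0.0825 and 0.0479 FPKM in Cre- and 17.1 and 1.61 FPKM in Cre+ muscles (6.95 ± 1.67, adjusted p = 0.0141), and Cnfn, cornifelin, had 1 count in Cre- and 170 in Cre+ muscles (ratio 131, interval 23.2 to 5211). Both were far higher in Cre+ replicate 1 than in replicate 2, and both calls were lost without Cre- replicate 1, Cre- replicate 2 or Cre+ replicate 1. Without Cre+ replicate 1 the changes were 4.50 for Arhgap36 and 4.41 for Cnfn on the log2 scale. Fam83g was at 0.209 and 0.111 FPKM in Cre- and 7.84 and 3.96 FPKM in Cre+ muscles (5.02 ± 0.54, adjusted p = 8.76e-05), and lies over Slc5a10. Phox2a, a transcription factor of autonomic neurons that overlaps Inppl1, was at 0 and 0.0752 FPKM in Cre- and 2.84 and 2.88 FPKM in Cre+ muscles (5.93 ± 1.19, adjusted p = 0.00528), a call lost without Cre- replicate 1, where the change was 5.03. Without Cre- replicate 2, whose 5 counts were its whole Cre- signal, the fitted change was 10.62. The fitted changes of Gng13 and Mt4 also moved with single Cre- libraries, to 10.83 without Cre- replicate 2 for Gng13 and from 7.39 to 9.998 without Cre- replicate 1 and 6.45 without Cre- replicate 2 for Mt4, while both stayed called. Among other genes that stayed called, Evpl stood at 6.30 without Cre- replicate 2, Cfap52 at 6.41 without Cre- replicate 1, and Pkp1 at 10.93 without Cre- replicate 1, 6.44 without Cre- replicate 2 and 6.72 without Cre+ replicate 1.

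**Figure D2:**
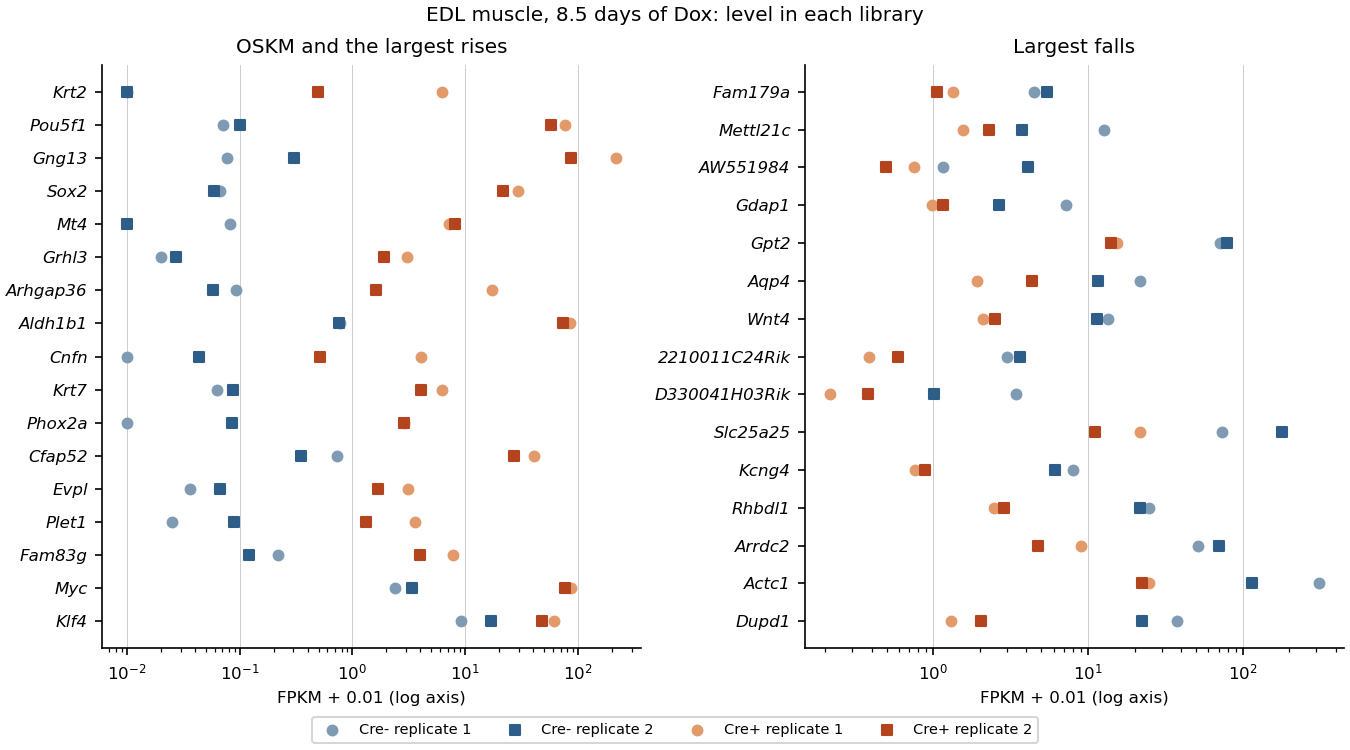
Levels of OSKM and the largest rises (left) and the largest falls (right) in EDL muscles of 8.5 days, as FPKM plus 0.01 on a log axis, with 1 symbol per library (blue Cre-, orange Cre+; circles replicate 1, squares replicate 2). Orange and blue symbols do not overlap for any gene shown, as the choice of these genes required, and the Cre+ replicates of Krt2, Arhgap36 and Cnfn lie far apart.

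The largest falls were of genes that fast muscle normally transcribes. Dupd1, a dual-specificity phosphatase of muscle at chr14:21676572-21714576, was at 37.5 and 22.5 FPKM in Cre- and 1.29 and 2.02 FPKM in Cre+ muscles (-4.35 ± 0.53, adjusted p = 0.000239). Rhbdl1, a rhomboid-like membrane protein, was at 24.8 and 21.6 FPKM in Cre- and 2.47 and 2.87 FPKM in Cre+ muscles (-3.29 ± 0.17, adjusted p = 9.14e-07). Kcng4, a modifier of potassium channels, was at 7.98 and 6.07 FPKM in Cre- and 0.749 and 0.876 FPKM in Cre+ muscles (-3.29 ± 0.52, adjusted p = 0.00141). For each of these genes the lower Cre- library lay far above both Cre+ libraries. Actc1, the cardiac actin of developing muscle, was at 313 and 114 FPKM in Cre- and 24.8 and 22.3 FPKM in Cre+ muscles (-3.35 ± 0.49, adjusted p = 0.000853), and without Cre- replicate 1, its highest library, the change was -2.47. Slc25a25, a mitochondrial ATP-magnesium carrier, was at 73.6 and 181 FPKM in Cre- and 21.7 and 11.1 FPKM in Cre+ muscles (-3.16 ± 0.55, adjusted p = 0.00257), and -2.35 without Cre- replicate 2. For these genes the Cre- libraries disagreed in size, but each lay above both Cre+ libraries. Gpt2, the mitochondrial alanine aminotransferase, fell from 71.2 and 79.2 to 15.5 and 14.1 FPKM (-2.53 ± 0.22, adjusted p = 2.11e-05). Arrdc2, an arrestin-domain protein, fell from 51.4 and 70.8 to 8.98 and 4.77 FPKM (-3.35 ± 0.48, adjusted p = 0.000695), and Aqp4, the water channel of fast fibers, from 21.7 and 11.5 to 1.91 and 4.31 FPKM (-2.58 ± 0.45, adjusted p = 0.00243), a change of -3.35 without Cre+ replicate 2.

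The promoters of genes with large changes were read from RefSeq for GRCm38.p6, as the 250 bases before each start, and searched on both strands for ATGCAAAT, the octamer that Oct4 can bind, CACGTG, the E-box of Myc, GGGTGTGG, a Klf4-type motif, and CCACCC, a short CACC box whose letters do not occur in the preceding motif. Of 24537 genes in the table, 16611 had a RefSeq start within 100 bases of theirs, among them 11010 tested genes. The octamer was in 1.29% of the promoters of tested genes, 0.928% of those of 862 genes called higher and 0.837% of those of 717 genes called lower. The E-box was in 8.18%, 8.12% and 8.51%, the Klf4-type motif in 3.49%, 5.57% and 2.79%, and the CACC box in 33.7%, 36.9% and 32.4%. Of the 15 largest rises, the cassette genes Pou5f1 and Sox2 among them, 14 had a matched promoter, 4 with the CACC box (Pou5f1, Gng13, Grhl3 and Phox2a), 2 with the Klf4-type motif (Krt2 and Cnfn), 1 with the octamer (Plet1) and 0 with the E-box. Of the 15 largest falls, 9 were matched, 2 with the CACC box and 1 with the E-box (Rhbdl1). A match is a description of these letters and not a binding site. Printed here are a pair of large rises with 2 CACC boxes each, the rise with the octamer and the fall with the E-box, 5′ to 3′ on the strand of the gene, with the motif or its reverse complement in capitals: Grhl3 at chr4:135573633-135573882 (minus strand, CCACCC starting 118 and 77 bases before the start), Gng13 at chr17:25716922-25717171 (plus strand, 218 and 98 bases), Plet1 at chr9:50494275-50494524 (plus strand, ATGCAAAT at 73 bases) and Rhbdl1 at chr17:25837128-25837377 (minus strand, CACGTG at 178 bases).
Grhl3: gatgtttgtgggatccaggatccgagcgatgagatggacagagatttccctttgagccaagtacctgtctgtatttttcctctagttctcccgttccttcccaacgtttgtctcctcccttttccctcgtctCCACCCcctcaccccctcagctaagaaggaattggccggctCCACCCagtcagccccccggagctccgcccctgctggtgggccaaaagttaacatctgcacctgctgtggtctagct
Gng13: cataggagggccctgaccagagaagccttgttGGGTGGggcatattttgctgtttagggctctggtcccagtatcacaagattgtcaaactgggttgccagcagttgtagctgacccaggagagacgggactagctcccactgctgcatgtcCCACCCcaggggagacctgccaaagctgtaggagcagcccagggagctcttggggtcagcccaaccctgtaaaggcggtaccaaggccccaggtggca
Plet1: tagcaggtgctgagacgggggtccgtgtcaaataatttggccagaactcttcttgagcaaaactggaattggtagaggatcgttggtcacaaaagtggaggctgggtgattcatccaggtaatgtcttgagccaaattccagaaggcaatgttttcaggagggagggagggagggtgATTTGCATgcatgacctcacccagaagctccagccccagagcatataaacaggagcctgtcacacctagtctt
Rhbdl1: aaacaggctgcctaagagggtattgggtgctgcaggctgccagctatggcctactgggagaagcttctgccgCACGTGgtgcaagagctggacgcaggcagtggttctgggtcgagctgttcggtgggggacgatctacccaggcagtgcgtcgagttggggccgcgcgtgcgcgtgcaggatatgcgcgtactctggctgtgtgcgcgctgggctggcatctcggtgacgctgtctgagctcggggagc

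Among abundant genes, the rises largest in FPKM included genes of the cytoskeleton, of translation and of an ion channel. Serpinb6a, an intracellular protease inhibitor at chr13:33917918-33936083, rose from 93.6 and 82.6 FPKM in Cre- to 708 and 819 FPKM in Cre+ muscles (2.94 ± 0.22, adjusted p = 1.21e-05). Des, desmin, the intermediate filament that links sarcomeres, rose from 879 and 825 to 1909 and 1803 FPKM (0.94 ± 0.18, adjusted p = 0.00416). Cacng1, the gamma subunit of the muscle calcium channel, rose from 144 and 168 to 602 and 607 FPKM (1.77 ± 0.19, adjusted p = 6.65e-05). Replicates of these genes were close and the groups well apart. Eef1a1, a translation elongation factor whose paralog takes over in mature muscle, rose from 357 and 266 to 1283 and 801 FPKM (1.55 ± 0.27, adjusted p = 0.00221), and Capns1, the small calpain subunit, from 119 and 131 to 465 and 382 FPKM (1.58 ± 0.17, adjusted p = 8.67e-05). The falls largest in FPKM included Acta1 and Tnnt3. Acta1, skeletal actin, after which the Cre line is named, was at 19988 and 20089 FPKM in Cre- and 9527 and 13897 FPKM in Cre+ muscles (-0.94 ± 0.27, adjusted p = 0.0319). Tnnt3, fast troponin T, was at 19973 and 21159 FPKM in Cre- and 11241 and 14312 FPKM in Cre+ muscles (-0.86 ± 0.27, adjusted p = 0.0455). Cre+ replicate 1 was the lower library for both. Both calls were lost without Cre+ replicate 1, at -0.66 for Acta1 and -0.65 for Tnnt3. They were also lost, with changes about as large as with all libraries, without Cre- replicate 1 (-0.96 and -0.92) or Cre- replicate 2 (-0.93 and -0.80). The call of Tnnt3 was lost without Cre+ replicate 2 too (-1.10).

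Genes of mitochondrial energy metabolism were lower as a group. Of 76 tested genes of oxidative phosphorylation 64 fell and 0 rose, with a median of -0.73, against 6.50% of all genes tested called lower and a median of -0.02. Their summed level was 39133 and 35889 FPKM in Cre- and 23268 and 28187 FPKM in Cre+ muscles, so the groups did not overlap. Cox6a2, the muscle form of a cytochrome oxidase subunit, fell from 1457 and 1517 to 749 and 1000 FPKM (-0.94 ± 0.17, adjusted p = 0.00362), and Ndufa5, a complex I subunit, from 364 and 311 to 170 and 222 FPKM (-0.96 ± 0.16, adjusted p = 0.00203). In both, Cre+ replicate 1 was the lowest library. The TCA cycle had 13 of 19 lower and 0 higher (median -0.61), fatty acid oxidation 10 of 24 lower and 0 higher (median -0.47), and regulators of mitochondria 9 of 19 lower and 0 higher (median -0.48). Among the regulators, Ppargc1a, the coactivator PGC-1alpha, fell from 7.02 and 4.93 to 3.27 and 3.18 FPKM (-1.07 ± 0.19, adjusted p = 0.003) and Perm1, a muscle coregulator, from 85.9 and 85.0 to 35.3 and 49.4 FPKM (-1.18 ± 0.19, adjusted p = 0.00181). The mitochondrial ribosome, by comparison, had 11 of 78 lower and 0 higher (median -0.24).

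The number of these calls rested on Cre+ replicate 1. Without it, 16 of 76 oxidative phosphorylation genes, 1 TCA cycle gene, 0 fatty acid oxidation genes, 3 mitochondrial regulators and 0 mitochondrial ribosome genes were lower, while the medians of all 5 lists stayed negative. Without Cre- replicate 1 the counts were 38 for oxidative phosphorylation, 8 for the TCA cycle, 3 for fatty acid oxidation, 3 for the regulators and 4 for the mitochondrial ribosome. With library size alone as the scaling they were 42, 8, 3, 4 and 1, and with DESeq2 66, 13, 11, 9 and 11, in the same order of lists.

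Glycolysis and glycogen breakdown were split. Of 33 genes 11 fell and 4 rose, against 6.50% and 7.63% over all genes, with a median of -0.38. Phkg1, the catalytic subunit of muscle phosphorylase kinase, fell from 215 and 250 to 62.1 and 86.1 FPKM (-1.82 ± 0.33, adjusted p = 0.00304), and Gpd1, which links glycolysis to glycerol phosphate, from 279 and 374 to 102 and 128 FPKM (-1.68 ± 0.25, adjusted p = 0.00102). Without Cre+ replicate 1 Phkg1 stood at -1.56 and missed the threshold. Tpi1, triose phosphate isomerase, fell from 1748 and 1811 to 929 and 1128 FPKM (-0.96 ± 0.20, adjusted p = 0.00636), which without Cre+ replicate 1 was -0.78 and not called. The rises were of forms used outside fast muscle or shared by most cells: Hk1, Pfkl, Pgam1 and Gpi1, with Gpi1 the most abundant at 245 and 330 FPKM in Cre- and 544 and 480 FPKM in Cre+ muscles. Without Cre+ replicate 1 or Cre- replicate 1 none of the 4 was called, and 2 and 8 genes of the list were lower.

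**Figure D3:**
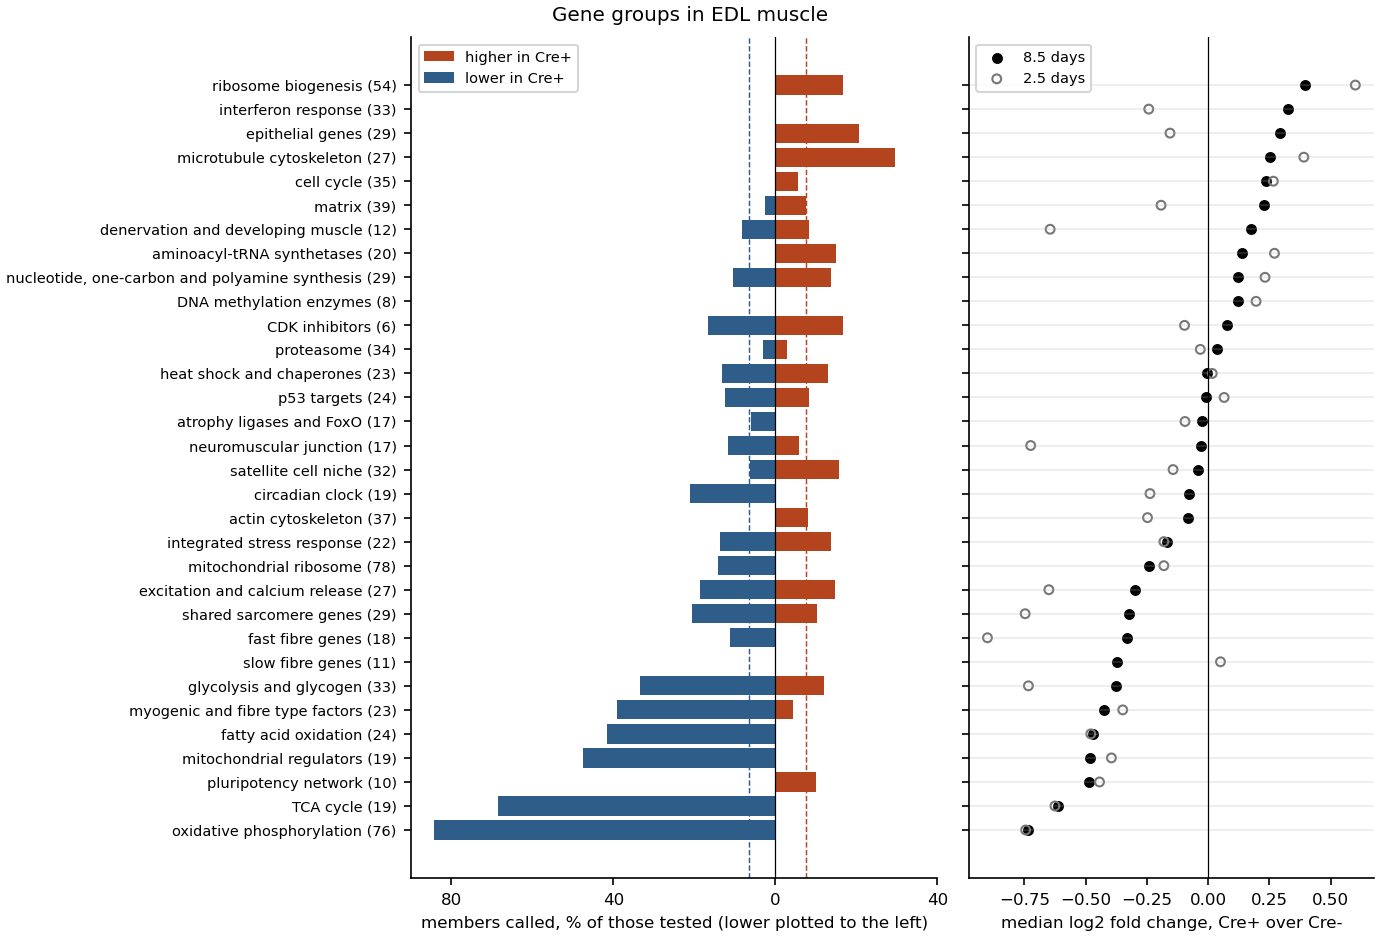
Left, the percentage of tested members of each gene list (number tested in parentheses) called higher (red, to the right) or lower (blue, to the left) in Cre+ EDL muscles at 8.5 days, with dashed lines at 7.63% and 6.50%, the shares over all genes tested. Right, the median log2 fold change of each list at 8.5 days (filled) and 2.5 days (open); oxidative phosphorylation lies lowest at 8.5 days, and the open symbols of fast fibre genes lie further below 0 than the filled ones.

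Among contractile genes, most calls were in the list shared by both fiber types, read against 6.50% lower and 7.63% higher over all genes. Of 18 fast-fibre genes 2 fell (Tnni2 and Tnnt3), of 11 slow-fibre genes 0 passed in either direction, and of 29 sarcomere genes shared by both fiber types 6 fell and 3 rose. The falls included Neb, the giant thin-filament ruler, from 317 and 195 to 159 and 156 FPKM (-0.88, adjusted p = 0.0133), and Ldb3, a Z-disc protein, from 906 and 867 to 586 and 673 FPKM (-0.67, adjusted p = 0.0103). The rises were Des, Xirp1, a repair-associated actin binder, from 22.1 and 24.1 to 58.8 and 51.1 FPKM (1.07 ± 0.19, adjusted p = 0.00255), and Myom3, an M-band protein, from 14.1 and 11.0 to 69.8 and 48.9 FPKM (2.06 ± 0.26, adjusted p = 0.000259). All 3 rises held without each of the 4 libraries in turn, whereas 0 genes of that list and 0 fast-fibre genes were lower without Cre+ replicate 1. Tnni2 also lost its call without Cre- replicate 1 (-0.77). The slow-fibre median was -0.37 with all libraries, 0.86 with 1 gene higher without Cre- replicate 1, and -1.08 without Cre- replicate 2.

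Of 27 genes of excitation and calcium release 5 fell and 4 rose, where 6.50% of all genes were called lower and 7.63% higher. The rises included Cacng1, Cacnb1, the beta subunit of the same calcium channel (57.2 and 55.4 to 170 and 147 FPKM, 1.31 ± 0.12, adjusted p = 3.29e-05), and Cav3. There were 4 rises and 1 fall without Cre+ replicate 1, and 3 rises and 2 falls without Cre- replicate 1. At the neuromuscular junction, Chrnb1, the beta subunit of the acetylcholine receptor, fell from 26.4 and 25.2 to 10.5 and 9.99 FPKM (-1.51 ± 0.18, adjusted p = 0.000186), while Lrp4, the agrin receptor, rose from 4.60 and 3.76 to 11.6 and 9.89 FPKM (1.18 ± 0.16, adjusted p = 0.000454). Etv5 was the other of the 3 called genes among 17, at -0.55, and its call was lost without any 1 of the 4 libraries. Ncam1, an adhesion molecule of developing and denervated fibers, rose from 1.89 and 2.15 to 12.3 and 7.07 FPKM (2.07 ± 0.29, adjusted p = 0.000668), and Chrna1, another gene that denervation raises, was at 8.80 and 10.1 FPKM in Cre- and 11.1 and 9.93 FPKM in Cre+ muscles (-0.03 ± 0.22, adjusted p = 0.948). Of the 12 genes of that list Ncam1 was the rise and Actc1 the fall. Of 23 myogenic and fiber type regulators 9 were lower and 1 higher, against the same 6.50% and 7.63%. The falls included Six4 and Eya1, which set the fast program, Tbx15, from 110 and 97.1 to 61.7 and 63.0 FPKM (-0.91 ± 0.20, adjusted p = 0.00813, not called without Cre+ replicate 1 or Cre- replicate 1), Srf and Mbnl1, and the rise was Mef2d (0.82 ± 0.13, adjusted p = 0.00156). Without Cre+ replicate 1 there were 2 lower and 1 higher, and without Cre- replicate 1 3 lower and 2 higher.

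Microtubule and ribosome biogenesis genes were called higher and none lower, where 7.63% of all genes were called higher. Of 27 microtubule genes 8 rose and 0 fell, with the beta-tubulins at the head. Tubb6 rose from 10.3 and 21.9 to 116 and 76.1 FPKM (2.38 ± 0.33, adjusted p = 0.000591), Tubb4b from 82.4 and 87.7 to 449 and 477 FPKM (2.27 ± 0.29, adjusted p = 0.000306) and Tubb5 from 17.7 and 31.8 to 158 and 98.4 FPKM (2.18 ± 0.31, adjusted p = 0.00061). Tubulin genes have similar sequences, and reads shared between them are not in these counts. Of 37 actin cytoskeleton genes 3 rose (Diaph1, Msn and Arpc2) and 0 fell, close to the share over all genes, and 22 of the 37 had a negative change (median -0.08). Ribosome biogenesis, a set of Myc-responsive genes, had 9 of 54 higher and 0 lower, with a median of 0.39. Utp18 rose from 3.10 and 2.53 to 9.21 and 6.98 FPKM (1.34 ± 0.26, adjusted p = 0.00462, not called without Cre+ replicate 1) and Tsr1 from 8.80 and 10.4 to 23.7 and 20.8 FPKM (1.03 ± 0.23, adjusted p = 0.00964). The summed level of that list was 621 and 712 FPKM in Cre- and 1032 and 986 FPKM in Cre+ muscles, and 53 of its 54 genes had a positive change. How many passed was unsettled: 0 without Cre+ replicate 1, 1 without Cre- replicate 1, 2 without Cre+ replicate 2, 19 without Cre- replicate 2, 17 with DESeq2 and 19 with library size alone. Microtubule genes numbered 3 without Cre+ replicate 1 and 3 without Cre- replicate 1, and 5 without Cre+ replicate 2, and the change of Tubb6 was 3.04 without Cre- replicate 2. Of 29 genes of nucleotide, one-carbon and polyamine synthesis 4 rose (Psat1, Mthfd1l, Impdh1 and Srm) and 3 fell, and of 20 aminoacyl-tRNA synthetases 3 rose (Vars, Kars and Qars) and 0 fell. These counts were 2 and 0, and 1 and 0, without Cre+ replicate 1. They were 2 and 2, and 1 and 1, without Cre- replicate 1, and 8 and 4, and 6 and 0, without Cre- replicate 2. Arpc2, Mthfd1l, Kars and Qars also lost their calls without Cre- replicate 1.

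Of 35 cell cycle genes 2 rose, close to the 7.63% of all genes called higher: Ccnd3 (12.2 and 17.6 to 36.5 and 29.5 FPKM, 0.96, adjusted p = 0.00838) and E2f1 (0.681 and 0.817 to 2.02 and 1.40 FPKM, 1.00, adjusted p = 0.0229), and neither was called without Cre- replicate 1 or Cre+ replicate 1. Cdkn1a, which encodes the cell cycle inhibitor p21, rose from 29.9 and 29.5 to 158 and 130 FPKM (2.09 ± 0.21, adjusted p = 4.50e-05). Trp53, its best-known activator, was at 7.83 and 10.3 FPKM in Cre- and 13.8 and 11.6 FPKM in Cre+ muscles (0.30 ± 0.17, adjusted p = 0.266). Cdkn1a held without each of the 4 libraries. Of 24 p53 targets 2 rose (Cdkn1a and Bbc3) and 3 fell (Trp53inp1, Ccng1 and Ddit4), against 7.63% and 6.50% over all genes, with a median of -0.01. These counts were 1 and 1 without Cre+ replicate 1 and 1 and 0 without Cre+ replicate 2, and the call of Bbc3 (0.92) was lost without any 1 of the 4 libraries. Ccng1 was at 258 and 126 FPKM in Cre- and 98.6 and 116 FPKM in Cre+ muscles (-1.01 ± 0.27, adjusted p = 0.0242), so Cre- replicate 1 alone lay far above the rest, and without it the change was -0.43 and not called. Trp53inp1 behaved likewise, at -1.18 with all libraries and -0.63 without Cre- replicate 1. Pluripotency genes outside the cassette mostly lay under the filter on low counts. Of 27, 10 were tested and 1 rose, Lefty1, a Nodal inhibitor, from 0.841 and 0.777 to 3.67 and 3.72 FPKM (2.01 ± 0.24, adjusted p = 0.000199). The largest fitted change of the 10 was 4.59, in a gene that was not called, and 6 had a negative change (median -0.49). Nanog had 1 count in all 4 libraries together, under the floor of 3 counts.

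In the satellite cell niche list, the genes called lower were ligands and those called higher a ligand and genes of adhesion. Of 35 listed genes 32 were tested, 5 rose and 2 fell, against 7.63% and 6.50% of all genes, and 3 rose and 1 fell without Cre+ replicate 1. Wnt4, a ligand of the fiber that keeps satellite cells quiescent, fell from 13.5 and 11.4 to 2.08 and 2.48 FPKM (-2.63 ± 0.28, adjusted p = 6.81e-05). Vegfa, the endothelial growth factor, fell from 94.6 and 82.4 to 50.5 and 58.6 FPKM (-0.87 ± 0.17, adjusted p = 0.00417), and at -0.72 was not called without Cre+ replicate 1. In both, the groups did not overlap. Gdf11, a ligand of the activin and myostatin family at chr10:128880524-128891718, rose from 2.80 and 1.76 to 61.4 and 58.4 FPKM (4.54 ± 0.37, adjusted p = 1.42e-05). Another ligand, Wnt2b, stayed low at 0.202 and 0.156 FPKM in Cre- and 0.566 and 0.307 FPKM in Cre+ muscles (1.10 ± 0.64, adjusted p = 0.277). Among adhesion genes, Itga7, the laminin-binding integrin chain of myofibers, rose from 30.9 and 32.2 to 129 and 79.5 FPKM (1.53 ± 0.21, adjusted p = 0.000542), and its partner Itgb1 from 68.7 and 57.8 to 139 and 126 FPKM (0.89 ± 0.12, adjusted p = 0.000533). Lama2, the laminin chain they bind, rose from 8.03 and 7.44 to 19.8 and 13.9 FPKM (0.94 ± 0.21, adjusted p = 0.00981), a call lost without Cre- replicate 1 (0.98) or Cre+ replicate 1 (0.72). Sdc4, a syndecan of satellite cells and many other cells, rose from 13.2 and 17.0 to 36.4 and 35.7 FPKM (1.07 ± 0.29, adjusted p = 0.0246), and its call was lost without Cre- replicate 1 (0.89), Cre+ replicate 1 (1.11) or Cre+ replicate 2 (1.03).

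Stress and housekeeping groups varied in how many genes passed, where 7.63% of all genes were called higher and 6.50% lower. Of 22 tested genes of the integrated stress response 3 rose, among them Nupr1 (39 and 30.7 to 98.1 and 82.7 FPKM, 1.19 ± 0.13, adjusted p = 8.67e-05), and 3 fell. Of 23 heat shock genes 3 rose and 3 fell, with Hspb6, a small heat shock protein of muscle, falling from 867 and 723 to 262 and 364 FPKM (-1.51 ± 0.22, adjusted p = 0.000697). Of 34 proteasome genes 1 rose, Psmd8, from 91.4 and 97.6 to 287 and 325 FPKM (1.52 ± 0.19, adjusted p = 0.000316), and 1 fell. Of 19 circadian clock genes 4 fell and 0 rose, of 17 atrophy genes 1 fell, of 39 matrix genes 3 rose and 1 fell, and of 33 interferon genes and 8 DNA methylation enzymes 0 passed. Without Cre+ replicate 1 no clock gene was lower and no matrix gene higher, 2 stress response genes rose and 0 fell, and 1 heat shock gene rose and 2 fell. Without Cre- replicate 1 no matrix gene passed, 2 clock genes were lower and 2 DNA methylation enzymes higher. Without Cre+ replicate 2 1 clock gene was lower and 1 interferon gene higher. No atrophy gene was lower without Cre+ replicate 1 or Cre- replicate 1.

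**Figure D4:**
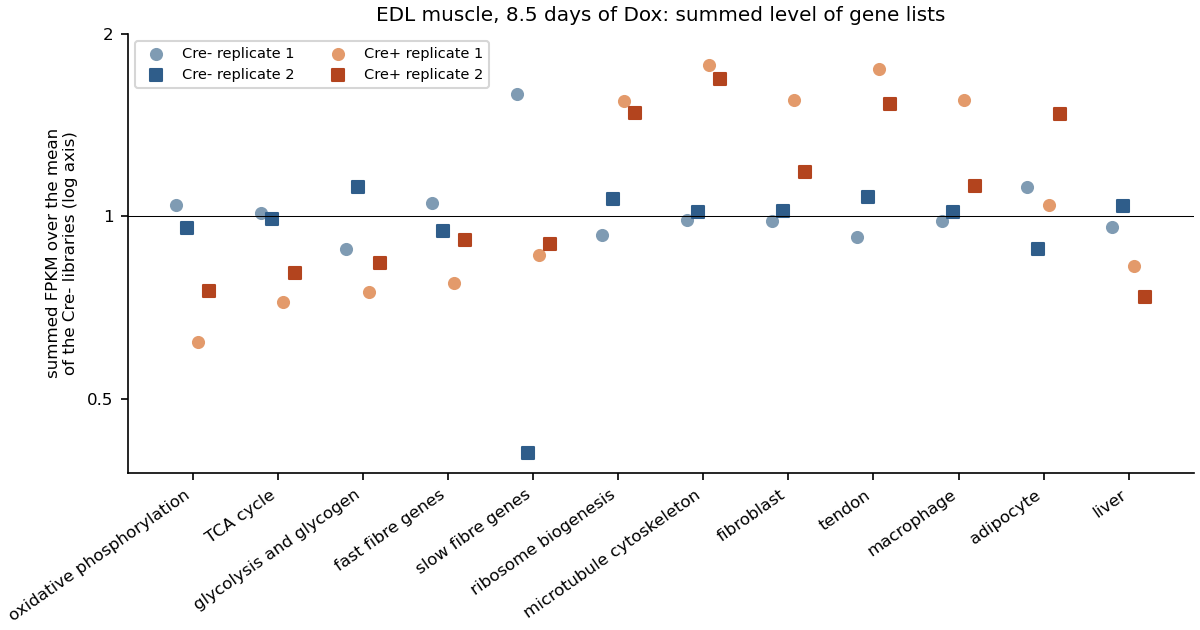
Summed FPKM of gene and marker lists in each EDL library of 8.5 days, divided by the mean of the 2 Cre- libraries (log axis, 1 symbol per library). Oxidative phosphorylation and the TCA cycle lie below 1 in both Cre+ libraries, microtubule and tendon lists above 1, and the slow-fibre symbols of the Cre- libraries lie furthest apart.

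Among markers of other cells of the muscle, single calls were those of Sdc4, Ptprb and Cidea, where 7.63% of all genes were called higher and 6.50% lower. Of 9 satellite cell markers 1 rose (Sdc4), and Pax7, the defining factor, was at 0.955 and 0.888 FPKM in Cre- and 1.56 and 1.43 FPKM in Cre+ muscles (0.52 ± 0.20, adjusted p = 0.0924). Of 12 endothelial markers 1 fell (Ptprb, not called without Cre+ replicate 2), and of 8 tested adipocyte markers 1 rose (Cidea, from 0.599 and 0.438 to 3.88 and 3.59 FPKM, adjusted p = 0.000102). No marker of macrophages (14), fibroblasts (10), Schwann cells (10), mural cells (9), tendon (8), neutrophils (7) or lymphocytes (3) passed. The tendon list summed to 618 and 718 FPKM in Cre- and 1168 and 1021 FPKM in Cre+ muscles, with 8 of 8 genes not overlapping between groups, against 55.8% of all genes tested. None of the 8 was called. The fibroblast list summed to 1231 and 1279 against 1950 and 1486 FPKM, and the macrophage list to 156 and 162 against 248 and 179 FPKM. Cre+ replicate 1 was highest in each. With totals scaled by TMM the macrophage sums overlapped, at 167 and 177 against 227 and 176. The median change without Cre+ replicate 1 turned from 0.10 to -0.04 for fibroblast markers and from 0.20 to -0.10 for macrophage markers, and was 0.47 for tendon markers, against 0.46 with all libraries. The part of tendon and connective tissue RNA in the matrix and niche results was not tested.

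To ask which changes were already present earlier, the same comparison in EDL muscles of 2.5 days was used, which shares no library with that of 8.5 days. It called 3684 genes (24% of those tested), 2118 higher (13.8%) and 1566 lower (10.2%). Of the genes higher at 8.5 days 944 were also higher at 2.5 days, 80.5% of the 8.5-day list and 44.6% of the 2.5-day list. Of the genes lower at 8.5 days 686 were also lower at 2.5 days, 68.7% and 43.8%, and no gene was called in opposite directions. Shared rises had a median log2 fold change of 1.09 at 8.5 days and 1.29 at 2.5 days, and shared falls -0.85 and -0.95. Over all 2.5-day calls the medians at 8.5 days were 0.65 for those higher and -0.56 for those lower, against 1.13 and -0.85 at 2.5 days itself. Over all 8.5-day calls the medians at 2.5 days were 1.09 and -0.79, against 0.99 and -0.83 at 8.5 days itself. A set picked by its calls on 1 day favours that day, so these medians do not measure a change with time. The difference of the changes between days was tested in the same fit, and edgeR called 0 genes, with 1469 (9.56%) at an unadjusted p under 0.05. DESeq2 on the same libraries called 144. Other edgeR settings called 0 to 412 genes, the most without EDL Cre+ replicate 1 of 2.5 days. The days also differed in the mice. Xist, transcribed from the inactive X chromosome, had 6493 to 13312 counts in the libraries of 8.5 days and 6 to 16 in those of 2.5 days, and the Y-linked Ddx3y had none at 8.5 days and 2304 to 3039 at 2.5 days. Day of Dox and sex therefore cannot be told apart.

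The oxidative phosphorylation list had a median of -0.73 at 8.5 days with 64 genes lower and of -0.75 at 2.5 days with 67 lower. Differences of list medians between days were not tested. Fast-fibre genes had a median of -0.33 at 8.5 days with 2 lower and of -0.90 at 2.5 days with 11 lower, and glycolysis -0.38 with 11 lower and -0.73 with 21 lower. Over all genes tested, 6.50% were called lower at 8.5 days and 10.2% at 2.5 days. Ribosome biogenesis had 9 genes higher at 8.5 and 28 at 2.5 days, where 7.63% and 13.8% of all genes tested were called higher. Of 24 p53 targets 2 were higher and 3 lower at 8.5 days, and 8 were higher and 1 lower at 2.5 days. Npm1, a nucleolar chaperone, was called at 2.5 days (1.09) but was at 82.3 and 77.1 FPKM in Cre- and 118 and 106 FPKM in Cre+ muscles of 8.5 days (0.31 ± 0.17, adjusted p = 0.262). Wnt2b changed by 4.04 at 2.5 days, and the difference between days was -2.94 (adjusted p = 0.362). Genes with larger values at 8.5 days included Gdf11, at 4.54 against 2.34 (difference 2.21, adjusted p = 0.212), Serpinb6a, at 2.94 against 1.73 (1.21, adjusted p = 0.217), and Des, at 0.94 against 0.10 (0.84, adjusted p = 0.338).

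**Figure D5:**
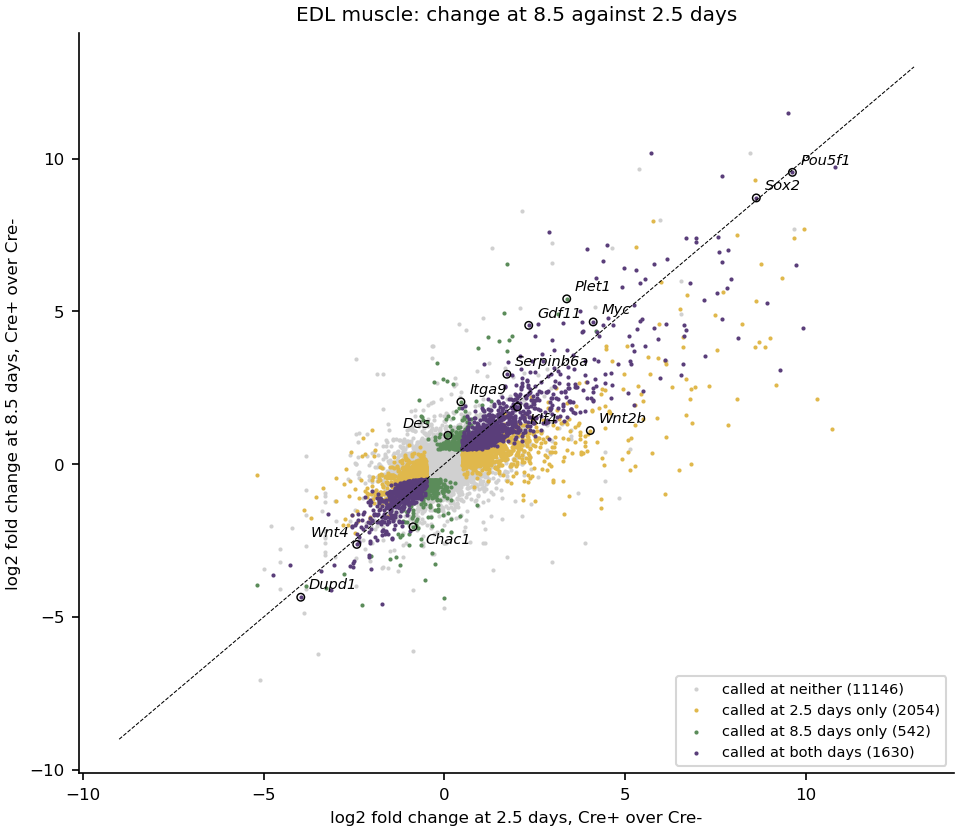
Log2 fold change of Cre+ over Cre- in EDL muscle at 2.5 days (x axis) and 8.5 days (y axis) for each gene tested, with the dashed line at equal change. Purple marks the 1630 genes called at both days, green the 542 called at 8.5 days only and yellow the 2054 called at 2.5 days only; Gdf11, Plet1 and Itga9 lie above the line and Wnt2b below it.

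Genes called at 8.5 days but not at 2.5 days numbered 229 higher and 313 lower, 299 of the latter outside the liver list. Most leaned the same way earlier: 202 of the 229 and 281 of the 299 had the same sign at 2.5 days. Plet1, a surface protein of placental and hair follicle progenitors, was at 0.0151 and 0.0787 FPKM in Cre- and 3.59 and 1.31 FPKM in Cre+ muscles (5.41 ± 1.44, adjusted p = 0.0228, and 3.39 with adjusted p = 0.0689 at 2.5 days). It overlaps Plet1os, and its call was lost without Cre- replicate 1 (4.72), Cre- replicate 2 (7.03) or Cre+ replicate 1 (4.58). Itga9, an integrin chain of the tenascin receptor, was at 1.68 and 2.38 FPKM in Cre- and 11.4 and 7.68 FPKM in Cre+ muscles (2.04 ± 0.26, adjusted p = 0.000308, and 0.46 at 2.5 days). Katnal2, a katanin-like microtubule-severing protein, was at 0.602 and 0.422 FPKM in Cre- and 3.66 and 3.55 FPKM in Cre+ muscles (2.64 ± 0.49, adjusted p = 0.00368, and 0.24 at 2.5 days). Both held without each of the 4 libraries. Among the falls were Tnfaip2 (35.8 and 42.8 to 14.1 and 11.4 FPKM, -1.81 ± 0.34, adjusted p = 0.00378) and Chac1, a glutathione-degrading enzyme of the stress response (26.7 and 26.9 to 6.57 and 8.05 FPKM, -2.05 ± 0.63, adjusted p = 0.0435). Chac1 lost its call without any 1 of the 4 libraries, at -1.86 to -2.26, and Tnfaip2 kept it. Malat1, a nuclear long non-coding RNA, was at 152 and 50.9 FPKM in Cre- and 45.2 and 41.4 FPKM in Cre+ muscles (-1.40 ± 0.35, adjusted p = 0.017), and without Cre- replicate 1 its change was -0.43 and not called.

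SOL muscles of the same mice at 8.5 days had 97 genes (0.631%) called and 1015 (6.60%) at an unadjusted p under 0.05. Of the 1173 EDL rises 1084 had the same sign in SOL and 49 were called there, with medians of 0.99 in EDL and 0.26 in SOL. Of the 984 EDL falls outside the liver list 896 had the same sign, with medians of -0.82 and -0.21, and the 15 EDL falls that were also called lower in SOL were genes of the liver list. Both muscles came from the same mice, and the same-sign share to be had without a change in SOL was not estimated. The difference between muscles passed for 91 genes (0.592%), 82 (0.533%) more positive and 9 (0.0585%) more negative in EDL. With the mice as a block, since EDL and SOL came from the same animals, 175 passed, 135 and 40, and the named genes that follow passed in both fits. Without SOL Cre+ replicate 2 only 2 genes passed, and without EDL Cre- replicate 2 there were 183. Gdf11 rose by 4.54 in EDL and was at 1.39 in SOL (difference 3.15 ± 0.48, adjusted p = 0.0154). The adaptor Shc2 rose from 1.04 and 1.10 to 22.7 and 21.5 FPKM in EDL, a change of 4.19 against 0.48 in SOL (3.71 ± 0.57, adjusted p = 0.0164), and the sterol transporter Abcg4 from 0.161 and 0.174 to 5.36 and 4.15 FPKM, 4.63 against 1.64 (2.99 ± 0.32, adjusted p = 0.00321). Of the falls, Rhbdl1 was at -3.29 in EDL and -0.77 in SOL (difference -2.53 ± 0.23, adjusted p = 0.00122) and Dupd1 at -4.35 and -0.99 (-3.37 ± 0.68, adjusted p = 0.0497). Neither was called lower in SOL. In SOL 2 of the 4 factors were called higher. The fitted values there were 9.62 (Pou5f1), 5.59 (Sox2), 2.37 (Myc) and -0.04 (Klf4) on the log2 scale. The part of the levels of the factors in the differences between muscles was not tested.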

How the data were processed

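RNA-seq of EDL and SOL muscles was analysed from a table of 24537 RefSeq genes in 24 libraries. The deposited values are raw counts that the authors made with STAR 2.5.3a on mm10 and HOMER, which counted reads aligned uniquely to RefSeq exons, after FastQC 0.11.2. Reads shared between near-identical genes are therefore missing, and 394 genes have several copies in the annotation. The submitters' labels call the libraries stranded, and the strand used in counting is not given in the sources used here. The table also gives exon lengths in bases and copy numbers per gene, as deposited by the authors, and 0 columns of values were left without a sample. Groups follow the labels, 2 libraries each, and an exact permutation test of 2 against 2 cannot go below p = 0.333, so the tests were those fitted across all genes.

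One edgeR model of 8 groups covered the counts of all 16 libraries from 2.5 and 8.5 days (edgeR 4.0.16 in R 4.3.3, TMM, filterByExpr with a minimum count of 10, quasi-likelihood test, Benjamini-Hochberg over 15372 genes). The 5.5-day libraries, which the study left out, entered an alternative only. FPKM was computed from total counts without TMM scaling, and the TMM factors were 0.938 and 0.919 for Cre- and 1.09 and 1.01 for Cre+ libraries, so fitted rises are smaller, and fitted falls larger in size, than ratios of FPKM. A count of 0 allows up to 3 counts, and intervals cover counting error only. Promoters were matched by symbol and start, as RefSeq gives them for GRCm38.p6.

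Members and gene lists were chosen with earlier results of these data known. Named genes are OSKM, 6 genes the study names, the 15 largest rises and falls among separate groups averaging 1 FPKM or more, the 10 largest in FPKM, the 3 most abundant and 3 most changed of each list, the 5 genes per direction that differed most between muscles, and the 10 largest changes called at 8.5 days only. Alb, Myh4, Myh7, Vegfa, Bbc3, Xist, Ddx3y, Nanog, Krt14, Krt5, Krt8, Krt18, Pax7, Lefty1, Chrna1 and other list members given by value were named after their values were seen. Some genes that these rules or lists hold are not reported here by name. Alternatives were DESeq2 1.42.0, other scalings and filters, fits of fewer or all libraries, a threshold of 1 on the log2 scale, a block on replicate number, and omission of each library. To see whether equal replicate numbers pair Cre+ with Cre- libraries, their deviations from the group means were correlated. The crossed block and leaving out libraries of 2.5 days and SOL were added after seeing the data.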

Additional observations from a re-analysis of the deposited data

Results flagged for a closer look

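The change at 8.5 days differed between EDL and SOL muscles for 91 genes by a test of the difference itself in the edgeR fit, and the 5 largest differences in each direction are given here as EDL change minus SOL change on the log2 scale. The more positive ones in EDL were Shc2 (3.71), Gdf11 (3.15), Abcg4 (2.99), Cfap52 (2.98) and the lipid transfer protein Osbpl3 (2.92). The more negative ones were Dupd1 (-3.37), Rhbdl1 (-2.53), Gpt2 (-1.75), Gm15179 (-1.52), which overlaps Des, and the cap-binding protein Eif4e3 (-1.37). All 10 also passed with the mice as a block. No group had enough libraries for a test of single outlying samples.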

How the results depend on the processing

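The counts called in EDL at 8.5 days, 1173 higher and 999 lower, moved beyond 1.5 times under several settings. They were 685 and 336 with edgeR on the 4 libraries alone, 1956 and 542 with library size alone, and 580 and 318 at a log2 threshold of 1. With the 8 EDL libraries alone 537 were lower. Leaving out 1 library gave 543 to 1286 higher and 195 to 1435 lower, the lowest both times without EDL Cre+ replicate 1. The number of genes called alike at both days, 1630, was 793 with edgeR pairwise, 1075 with the EDL libraries, 679 at a log2 threshold of 1, and 639 to 1683 when 1 library was left out.

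The 0 genes that differed between days became 144 with DESeq2 on 16 libraries, 61 with DESeq2 pairwise, 7 with all 24 libraries, 3 without a filter, 3 with at least 10 counts in every library, and 0 to 412 when 1 library was left out, the highest without EDL Cre+ replicate 1 of 2.5 days. The 91 genes that differed between muscles became 347 with DESeq2 on 16 libraries, 368 with DESeq2 pairwise, 12 with edgeR pairwise, 175 with the mice as a block, and 2 to 183 when 1 library was left out.

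Cre+ and Cre- libraries shared only replicate numbers: the correlation of same-numbered libraries was -0.173 in EDL at 8.5 days, whereas that of EDL and SOL libraries of 1 mouse was 0.205 to 0.447. A replicate block gave 938 higher, 632 lower and 0 that differed between muscles, and the crossed pairing of the EDL libraries of 8.5 days 1151, 956 and 54. Of 283 named genes with a test, 0 of the 163 called ones changed sign under any alternative. DESeq2 on the same libraries left the call of 275 as it was, and leaving out Cre+ replicate 1 ended 84 calls. Causes were not tested. Of 4041 genes with a mean under 1 FPKM, 136 (3.37%) were called higher and 128 (3.17%) lower. With 2 libraries per group, small changes of such genes may be missed, and the size that could be found was not tested.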

Other observations

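Some genes differed widely between libraries of 1 genotype, and these values are given without a cause, chosen after they were seen. Ndufs5, a complex I subunit, was at 1.48 and 78.4 FPKM in the Cre- libraries and 33.8 and 1.09 FPKM in the Cre+ libraries, so each genotype held 1 high and 1 low library. Gdpd3 was at 0.787 and 26.6 FPKM in Cre- and 0.625 and 0.439 FPKM in Cre+ muscles, and Setd5 at 8.56 and 30.5 against 10.5 and 9.44 FPKM. Trim12a had no count in Cre- replicate 2 and was at 4.46 FPKM in Cre- replicate 1 and 5.91 and 4.81 FPKM in Cre+ muscles. The slow-fibre genes Myl2 (589 and 99.0 FPKM), Myl3 (331 and 50.8 FPKM) and Tnni1 (108 and 21.4 FPKM) followed Myh7 in the Cre- libraries, with Myl2 at 315 and 310 FPKM in Cre+ muscles. In all, 280 tested genes differed more than 2-fold between the Cre- libraries and 133 between the Cre+ libraries, on log2(FPKM + 0.5).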
